A study of Mus musculus with 6 samples.

Results

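The genes described here mark the step from a bone-forming osteoblast to an osteocyte, the cell that lies buried in mineralised bone. They are the 8 listed genes Dmp1, Mepe, Sost, Phex, Fgf23, Pdpn, Irx5 and Fam20c, out of 19935 genes measured. Each was read at a probe set that carries exactly 1 gene symbol, and each of the 8 had 1 such probe set. Expression was measured on 6 single-channel arrays of sorted osteoblastic cells from male mice, 4 from wild-type mice (WT) and 2 from mice deficient in the Y1 receptor for neuropeptide Y (Y1KO). In both genotypes the cells carried a green fluorescent reporter under a 3.6 kb piece of the rat alpha1(I) collagen promoter, were grown from the marrow of femora and tibias for 7 days, and were sorted for fluorescence. The reporter, not an osteocyte gene, defined the sort. The labels do not give the age or strain of the mice or the kind of Y1 deletion. They also do not say whether an array is 1 mouse or 1 culture, so a p-value measures only the spread between these arrays, which may be technical.

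An osteoblast that is overtaken by the matrix it secretes stops making bone, grows long processes and becomes an osteocyte. Pdpn is switched on early, while the processes form, and Dmp1, Phex and Mepe follow as the matrix around the cell mineralises. Sost and Fgf23 belong to mature osteocytes: sclerostin, the product of Sost, holds back Wnt signals to osteoblasts, and FGF23 is the hormone by which bone makes the kidney excrete phosphate. Dmp1 and Phex restrain Fgf23, and loss of either raises FGF23 and causes phosphate wasting.

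The promoter sequences of the 4 genes with the largest differences between genotypes are shown first, to set their base composition and motifs side by side. They are the 250 bases before the annotated transcription start, 5′ to 3′ on the gene's strand, from RefSeq on the mouse build GRCm38.p6. Capitals mark matches, on either strand, to TATAAA, to the RUNX motif TGTGGT, to the AP-1 motif TGANTCA, to the cAMP response element TGACGTCA, and to TTTAAA, which was added after the sequences were seen.
Pdpn, chr4:143299565-143299814, reverse strand: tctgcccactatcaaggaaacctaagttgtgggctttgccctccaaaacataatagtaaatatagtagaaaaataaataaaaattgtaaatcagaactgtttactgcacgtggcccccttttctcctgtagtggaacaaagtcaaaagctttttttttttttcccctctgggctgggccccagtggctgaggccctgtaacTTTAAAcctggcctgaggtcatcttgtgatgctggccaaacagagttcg
Fam20c, chr5:138754831-138755080, forward strand: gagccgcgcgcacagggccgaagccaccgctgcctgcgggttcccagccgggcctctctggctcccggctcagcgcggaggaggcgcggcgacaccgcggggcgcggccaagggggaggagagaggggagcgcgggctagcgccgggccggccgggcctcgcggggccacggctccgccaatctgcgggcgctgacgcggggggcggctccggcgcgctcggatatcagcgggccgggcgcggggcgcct
Dmp1, second of 2 annotated starts, chr5:104202367-104202616, forward strand: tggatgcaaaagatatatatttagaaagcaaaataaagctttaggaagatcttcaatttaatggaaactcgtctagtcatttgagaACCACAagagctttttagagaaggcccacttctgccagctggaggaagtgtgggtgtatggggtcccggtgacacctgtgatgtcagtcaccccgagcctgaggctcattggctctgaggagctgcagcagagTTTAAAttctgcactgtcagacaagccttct
Phex, chrX:157415287-157415536, reverse strand: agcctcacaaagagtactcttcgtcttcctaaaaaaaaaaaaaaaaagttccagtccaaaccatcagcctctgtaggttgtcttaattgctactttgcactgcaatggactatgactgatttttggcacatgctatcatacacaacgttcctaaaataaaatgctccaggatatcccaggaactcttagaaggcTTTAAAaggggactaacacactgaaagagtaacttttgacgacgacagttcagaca

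The windows differed in base composition. Fam20c had 81.2% G and C and 41 CpG steps and held 0 matches, while Pdpn had 43.2% and 2 CpG steps and Phex 39.2% and 4, against a median of 52.4% and 6 over 32851 windows of this length. TTTAAA lay 49 to 44 bases before the start of Pdpn, 31 to 26 before the second start of Dmp1 and 56 to 51 before that of Phex. It also stood 30 to 25 bases before the start of Sost and 27 to 22 before that of Fgf23. In all, 5 of the 8 windows of these genes held it, against 12.1% of all windows. TTTAAA was added after these same windows were seen, so this count is no test of an excess. The RUNX motif occurred in the second Dmp1 window and in 2 places in the Mepe window, which also held TATAAA. All windows held these at shares of 14% and 12.4%. The first Dmp1 start had 0 matches. The AP-1 and cAMP motifs, present in 6.75% and 1.55% of all windows, were in none of the 8 windows searched. The sequence for Irx5 was not used here. A match in these letters is a description and does not show that a factor binds.

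The arrays were alike in scale, with medians from 5.30 to 5.37, and none of the arrays were identical. Pairs of arrays correlated across genes (genes are not independent replicates), with r that ran from 0.991 to 0.996 among WT arrays and from 0.976 to 0.987 across genotypes. Of the 19935 genes, 1217 were higher and 1324 lower in Y1KO by limma's moderated test at a Benjamini-Hochberg adjusted p under 0.05, which is the rule for "rose" and "fell" below. Of the called genes 47.9% were higher, and 60.5% after centring of the arrays on their medians. The measured osteoblast genes Col1a1, Col1a2, Sp7, Alpl and Ibsp were all above the median of all genes in WT. So were 8 of 8 smooth muscle and pericyte genes, 4 of 6 adipocyte genes and 2 of 6 chondrocyte genes, so this check does not single out osteoblasts.

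Of the 8 osteocyte genes, 3 rose in Y1KO and 0 fell. Over all genes, 6.1% rose and 6.64% fell. The 3 were Pdpn, Fam20c and Irx5. The median difference of the 8, Y1KO minus WT, was 0.97 on the log2 scale, against 0.01 over all genes. In 5 of the 8 both Y1KO arrays lay beyond every WT array, always above, while groups did not overlap for 34.8% of all genes, and for 17.5% with Y1KO above. The remaining genes divided into Dmp1 and Phex, which were high but varied widely among WT arrays, and Mepe, Sost and Fgf23, whose values moved little on any array. These genes were chosen with earlier results of the same data known, so the counts describe them and do not test them as a set.

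**Figure D1:**
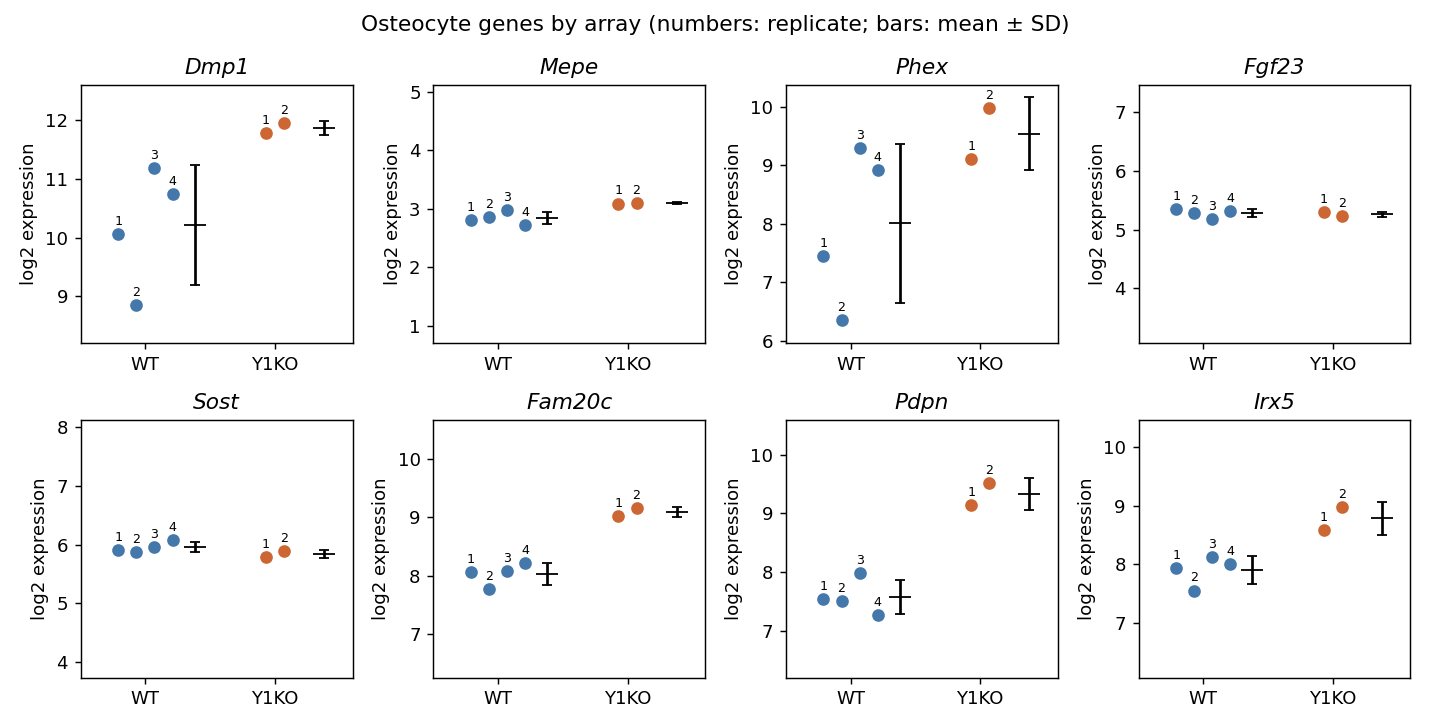
Log2 expression of the 8 osteocyte genes on each array, WT in blue and Y1KO in orange, with replicate numbers beside the points and the mean ± SD as black bars (n = 4 and n = 2). All panels span the same number of log2 units, so the wide scatter of Dmp1 and Phex in WT and the tight values of Mepe, Fgf23 and Sost can be compared by eye.

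Pdpn encodes podoplanin, a membrane glycoprotein of early osteocytes that links to the actin cortex and is needed for their processes to lengthen. It read 7.54, 7.51, 7.98 and 7.27 in the 4 WT arrays, in replicate order, and 9.14 and 9.52 in the Y1KO arrays. The lower Y1KO array stood 1.16 log2 units above the highest WT array. The mean rose from 7.57 ± 0.29 (SD, n = 4) to 9.33 ± 0.27 (SD, n = 2), a difference of 1.76 (SE 0.19, 95% interval 1.33 to 2.19) or 3.38-fold, with a limma adjusted p of 0.00111.

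Fam20c encodes the secretory-pathway kinase that phosphorylates many secreted proteins of bone and teeth, Dmp1 and FGF23 among them. Its values were 8.07, 7.77, 8.08 and 8.22 in WT and 9.03 and 9.15 in Y1KO. The groups lay 0.80 apart at their nearest arrays. The difference was 1.05 (SE 0.13, 95% interval 0.76 to 1.34) or 2.08-fold, with a limma adjusted p of 0.00171.

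Irx5, a homeobox transcription factor gene of the Iroquois family, read 7.93, 7.56, 8.12 and 8.004 in WT and 8.59 and 8.98 in Y1KO. The groups were separated by 0.47. The difference was 0.88 (SE 0.17, 95% interval 0.50 to 1.27) or 1.84-fold, with a limma adjusted p of 0.0105. Of these 3 genes, Pdpn and Fam20c were called with each single array left out in turn, where a lone Y1KO array is assumed to vary like the WT arrays, while Irx5 lost its call without Y1KO replicate 2, where its difference was 0.69 and the adjusted p 0.142. Without moderation of the variance all 3 missed the threshold, with limma adjusted p of 0.0630 for Pdpn, 0.0626 for Fam20c and 0.130 for Irx5.

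Dmp1 and Phex were higher on average in Y1KO, by 1.66 and 1.53 beside the 1.76 of Pdpn, but did not pass the test. Dmp1 encodes an acidic matrix phosphoprotein that guides mineral growth around osteocytes. It read 10.07, 8.85, 11.19 and 10.74 in WT and 11.79 and 11.96 in Y1KO. Both Y1KO arrays were above every WT array, by at least 0.60, and they differed from each other by 0.17 while the WT arrays spanned 2.34. The difference was 1.66 (SE 0.53, 95% interval 0.47 to 2.86), with a limma adjusted p of 0.0789. Without WT replicate 2 it was 1.21 and without WT replicate 3 it was 1.99, and Dmp1 then passed the test, with limma adjusted p of 0.0210 and 0.0350. With array weights it also passed, with a limma adjusted p of 0.0244. Of 16 alternatives, 4 called Dmp1. It missed the threshold with quantile normalization (limma adjusted p = 0.109), with the trend and robust options (0.217) and without moderation (0.326).

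Phex encodes a membrane endopeptidase of osteoblasts and osteocytes whose loss causes X-linked hypophosphataemia. Its WT values were 7.46, 6.36, 9.30 and 8.92 and its Y1KO values 9.10 and 9.98. WT replicate 3 stood above Y1KO replicate 1, so the groups overlapped. The difference was 1.53 (SE 0.72, 95% interval -0.10 to 3.16), with a limma adjusted p of 0.240. It was 0.98 without WT replicate 2, which held the lowest value.

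The spread of Dmp1 and Phex within WT was among the widest of all genes. The WT SD was 1.35 for Phex and 1.02 for Dmp1, against a median of 0.125 over all genes, which placed Phex at rank 4 and Dmp1 at rank 16 of the 19935 genes. In all, 17 genes had a WT SD above 1. Pdpn was at percentile 94.2 of this spread, Irx5 at 89.6, Fam20c at 78.3, Mepe at 38.3, Sost at 26.5 and Fgf23 at 18.9. These ranks are over all genes, dim ones included, and were not taken among genes of like expression. Dmp1, Phex and Irx5 put the WT arrays in the same order, with replicate 2 lowest, then 1, 4 and 3. That order, noticed after the values were seen, was held by 906 genes or 4.54% of all. Among genes of mean expression above the median it was held by 583 or 5.85%. Of the 1217 genes that rose in Y1KO, 173 held it. Fam20c was also lowest in WT replicate 2, but highest in replicate 4, and Pdpn was lowest in replicate 4.

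The genes with profiles nearest to those of Dmp1 and Phex over the 6 arrays were then listed. Likeness was measured as the root-mean-square difference between profiles, each relative to its own WT mean, and leaves out predicted genes, so a neighbour shares the spread within WT by construction. The nearest to Dmp1 were Dkk1, a secreted Wnt antagonist of osteocytes, at 0.187, Kazald1, a secreted protein gene of bone, at 0.189, and the O-glycosyltransferase gene Galnt5 at 0.190 log2 units. The nearest to Phex were Kazald1 at 0.226, the receptor phosphatase gene Ptprz1 at 0.332 and Dkk1 at 0.352. Dkk1 read 5.86, 5.01, 6.98 and 6.71 in WT and 7.52 and 8.16 in Y1KO. Its Y1KO arrays were both above all WT arrays, and its difference of 1.70 (SE 0.48) had a limma adjusted p of 0.0513. Dkk1 passed the test without WT replicate 2 (adjusted p = 0.0264) or WT replicate 3 (0.0287). Galnt5 rose by 1.67 (adjusted p = 0.0278) and lost its call without WT replicate 1 or either Y1KO array, with trend and robust options and without moderation. These neighbours were sought for Dmp1 and Phex after their values were seen.

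**Figure D2:**
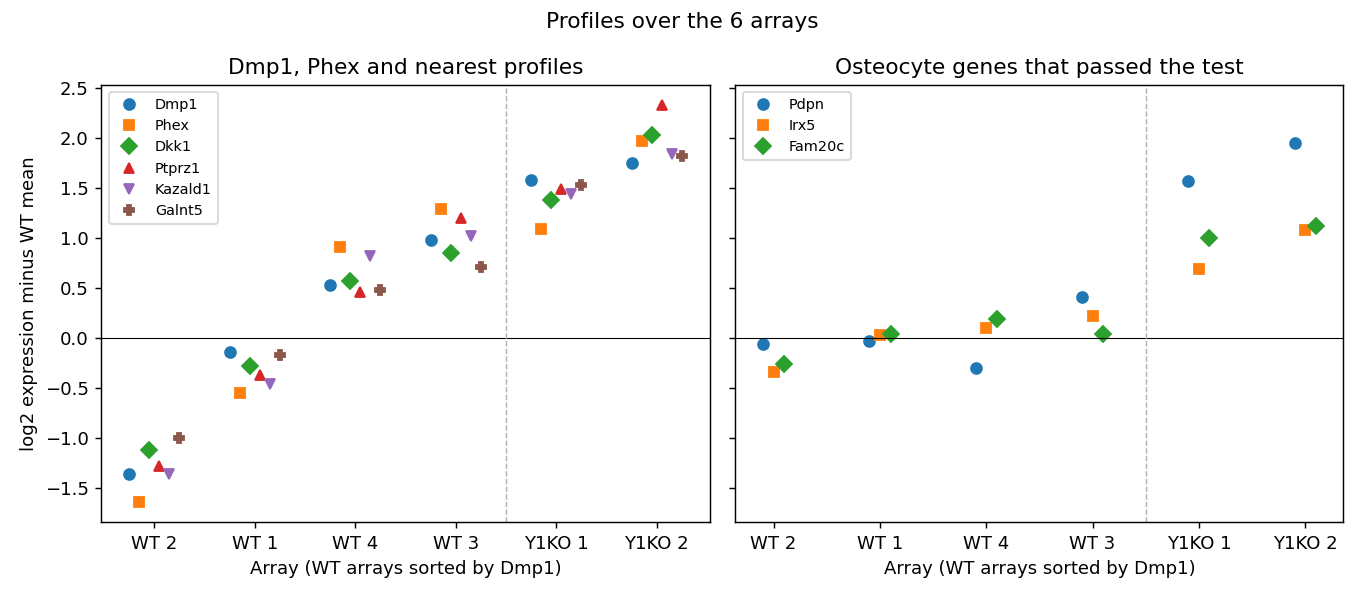
Log2 expression relative to each gene's WT mean on the 6 arrays, with the WT arrays sorted by Dmp1, for Dmp1, Phex and their nearest profiles (left) and for the 3 osteocyte genes that passed the test (right). On the left Dmp1 runs from 8.85 to 11.19 in log2 expression within WT, and of the genes plotted Phex alone has a WT point (replicate 3) above a Y1KO point (replicate 1).

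The same measure was applied to the 3 genes that rose. The nearest to Fam20c were the transporter gene Slc22a23 at 0.0408, Gpr180 at 0.0417 and the ephrin receptor gene Epha2 at 0.0483. Irx5 lay nearest to Megf9 at 0.0597, Arfgef3 at 0.0733 and Srgap1, a GTPase activator gene of the Slit-Robo pathway, at 0.0764. Pdpn had no neighbour as close: Slc16a4 of the monocarboxylate transporter family was at 0.235, the vesicular nucleotide transporter gene Slc17a9 at 0.238 and the secreted protein gene Nell2 at 0.257. The distance is not scaled to the size of the change, which was 1.76 for Pdpn, 1.05 for Fam20c and 0.88 for Irx5. It therefore does not show that the Pdpn profile is more distinct. All 9 of these neighbours rose in Y1KO, as the measure requires of a gene near one that rose.

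The late osteocyte genes Sost and Fgf23 showed no difference that the test could detect. Sost read 5.91, 5.87, 5.95 and 6.07 in WT and 5.79 and 5.89 in Y1KO, with overlapping groups. Y1KO minus WT was -0.11 (SE 0.09), with a 95% interval of -0.33 to 0.10 and a limma adjusted p of 0.550. Fgf23 read 5.35, 5.28, 5.18 and 5.32 in WT and 5.29 and 5.23 in Y1KO, a difference of -0.02 (SE 0.09, 95% interval -0.22 to 0.18, limma adjusted p = 0.928). Its sign turned to 0.0385 with median-centred arrays and also without WT replicate 1 or Y1KO replicate 2. The intervals leave out a 2-fold change in either direction on the scale of this array, which understates changes near background.

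Mepe, a matrix phosphoglycoprotein gene of late osteoblasts and osteocytes, read 2.81, 2.87, 2.97 and 2.72 in WT and 3.09 and 3.11 in Y1KO. The Y1KO arrays were above all WT arrays, by at least 0.12. The difference of 0.26 (SE 0.10, 95% interval 0.04 to 0.47) had a limma adjusted p of 0.135. The Mepe probe set stood at percentile 8.45 of all genes in WT, that of Fgf23 at 44.7 and that of Sost at 53.4. The table gives no detection call, and a dim probe set does not show how much transcript the cells held.

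Dmp1 and Mepe belong to the SIBLING phosphoproteins, whose genes Dspp, Dmp1, Ibsp, Mepe and Spp1 follow each other on the chromosome in that order in the RefSeq gene table. Of the 4 measured, 0 rose and 0 fell, where 12.7% of all genes were called in either direction. In all 4 both Y1KO arrays were above every WT array, as for 17.5% of all genes. For Dspp the groups barely separated, with 4.3084 in Y1KO replicate 1 against 4.3078 in WT replicate 4 (limma adjusted p = 0.461). The probe sets of Dspp and Mepe were dim, at percentiles 27.5 and 8.45 of all genes in WT. Y1KO was higher for Dspp, a dentine matrix gene, by 0.13, Dmp1 by 1.66, the bone sialoprotein gene Ibsp by 0.47 (adjusted p = 0.109) and Mepe by 0.26. Spp1 was not analysed here. Sparcl1, a matricellular gene just outside this run and named after its value was seen, fell by 0.70 (limma adjusted p = 0.00759).

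In the FAM20 family Fam20c and Fam20a went opposite ways. Fam20a, a pseudokinase that binds and activates Fam20c, read 8.48, 8.80, 8.27 and 8.20 in WT and 7.04 and 7.16 in Y1KO. Every Y1KO array was below every WT array. Fam20a fell by 1.34 (SE 0.16, 95% interval -1.70 to -0.97, limma adjusted p = 0.00168). It was called with each single array left out in turn, under the same assumption for a lone Y1KO array, and lost its call without moderation (adjusted p = 0.0680). Fam20b, a xylose kinase of proteoglycan synthesis, differed by 0.10 (SE 0.10, 95% interval -0.13 to 0.33, limma adjusted p = 0.649).

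Of the 6 Iroquois genes, Irx5 rose and 0 fell, where 6.1% of all genes rose and 6.64% fell. The other genes differed by -0.09 for Irx1, -0.04 for Irx2, -0.21 for Irx3, -0.13 for Irx4 and 0.13 for Irx6. The sign of Irx2 turned with quantile normalization and with median centring. Irx3, a chromosomal neighbour of Irx5 with a related homeodomain, read 8.60, 8.52, 8.89 and 8.50 in WT and 8.35 and 8.49 in Y1KO (limma adjusted p = 0.374).

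**Figure D3:**
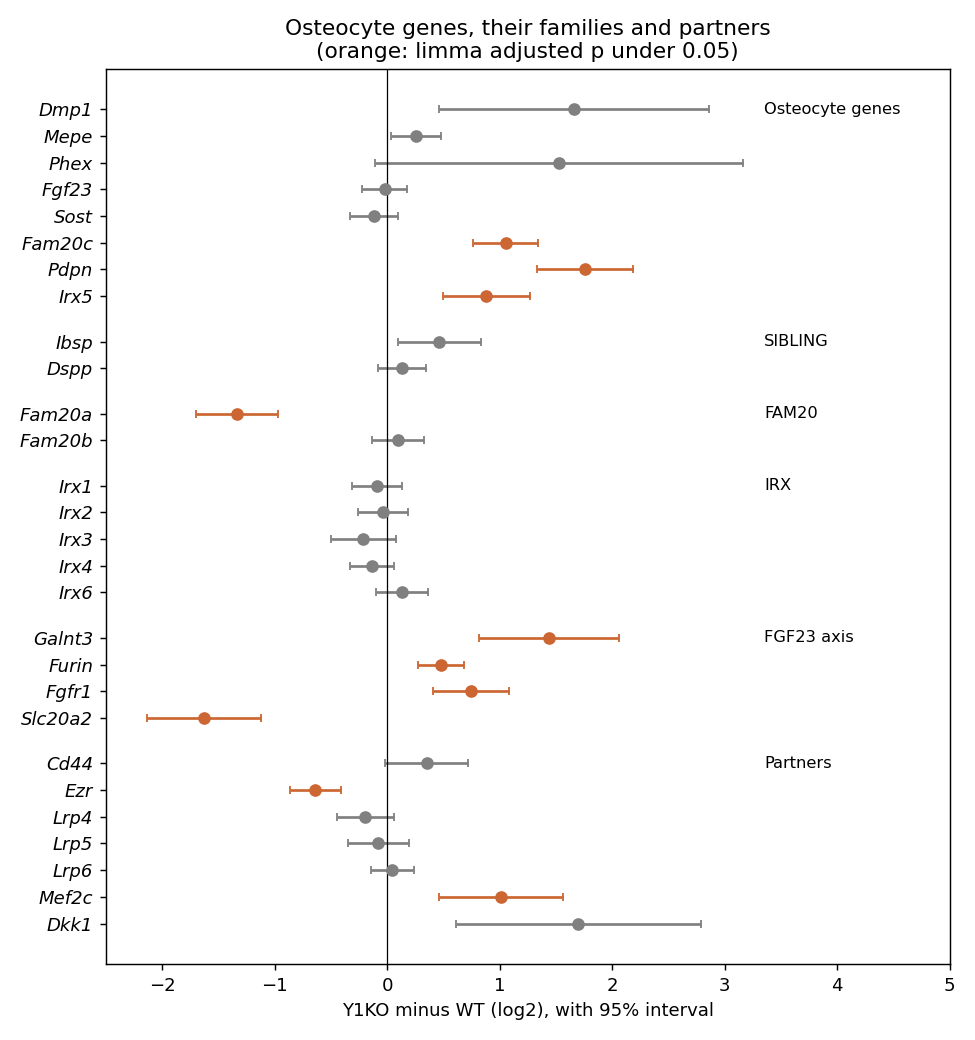
Log2 difference between Y1KO and WT (positive is higher in Y1KO), with its 95% interval, for the 8 osteocyte genes, their family members and partners, in orange where the limma adjusted p is under 0.05. The intervals of Dmp1 (0.47 to 2.86) and Phex (-0.10 to 3.16) are the widest among the 8, and Fam20a (-1.34) lies opposite to Fam20c (1.05).

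Some genes that act on FGF23 passed the test, while Fgf23 itself did not. Of 13 measured genes of FGF23 processing and phosphate handling, 3 rose and 1 fell, with a median difference of 0.25. Over all genes, 6.1% rose and 6.64% fell. Galnt3, which adds the O-glycan that shields FGF23 from cleavage, read 8.90, 7.77, 8.77 and 8.68 in WT and 9.94 and 10.00 in Y1KO. It rose by 1.44 (SE 0.27, limma adjusted p = 0.0104), and WT replicate 2 was again the lowest array. Furin, a protease that cleaves FGF23, rose by 0.48 (SE 0.09, limma adjusted p = 0.0102). Fgfr1, a receptor of FGF23, rose by 0.74 (SE 0.15, limma adjusted p = 0.0126). Slc20a2, a sodium-phosphate cotransporter, fell by 1.62 (SE 0.22, limma adjusted p = 0.00276). Without Y1KO replicate 1 or Y1KO replicate 2 the count of rising genes in this list was 0, and Slc20a2 still fell. Kl, the co-receptor of FGF23 in the kidney, differed by -0.06.

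Of 8 measured partners of podoplanin, 0 rose and 1 fell, a share near the 12.7% of all genes called in either direction. Ezr encodes ezrin, which ties membrane proteins such as podoplanin to actin. It read 7.09, 7.08, 7.06 and 7.04 in WT and 6.29 and 6.57 in Y1KO, and fell by 0.64 (SE 0.10, limma adjusted p = 0.00463). Without Y1KO replicate 1 it lost the call. The related linkers Msn and Rdx differed by 0.10 and -0.08, and Cd44, a hyaluronan receptor that binds podoplanin, by 0.35 (95% interval -0.02 to 0.72, limma adjusted p = 0.235). The median of the list was -0.07.

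Among 9 measured receptors and regulators of sclerostin, 1 rose and 0 fell, with a median of 0.10, and this share too is near the 12.7% of all genes. It was Mef2c, a transcription factor gene that drives Sost in osteocytes. Mef2c read 9.54, 8.57, 9.34 and 9.47 in WT and 10.24 and 10.25 in Y1KO, a rise of 1.01 (SE 0.24, limma adjusted p = 0.0272), while Sost stayed within its WT range or just below it. Mef2c lost the call without either Y1KO array, without moderation and with the trend and robust options. The sclerostin receptors Lrp4, Lrp5 and Lrp6 differed by -0.19, -0.08 and 0.05, with limma adjusted p from 0.356 to 0.824, and the sign of Lrp5 turned without Y1KO replicate 1.

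In a list of 18 further genes linked to osteocytes and to embedding in matrix, 2 rose and 1 fell, with a median of 0.03, again near the 12.7% of all genes called. Ackr3, an atypical chemokine receptor gene found in osteocytes, rose by 0.77 (SE 0.11, limma adjusted p = 0.00321), and Hyou1, an endoplasmic reticulum chaperone gene, by 0.55 (SE 0.14, adjusted p = 0.0354). Tnc, the matrix gene tenascin C, fell by 0.63 (limma adjusted p = 0.00567). Without Y1KO replicate 2 none of these 3 kept its call, Hyou1 also lost it without Y1KO replicate 1, WT replicate 1 or WT replicate 4, and Hyou1 missed the threshold with quantile normalization. Ptprz1 was 1.91 higher (SE 0.58, adjusted p = 0.0670) and passed without WT replicate 2 or WT replicate 3, which raised the rising genes of this list to 3.

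Marker lists of other cells moved in the same arrays. The mean of the 8 osteocyte genes, relative to its WT mean, was -0.08, -0.47, 0.37 and 0.18 in the WT arrays, in replicate order, and 0.75 and 1.00 in the Y1KO arrays. For the counts that follow, 6.1% of all genes rose and 6.64% fell. Of 10 macrophage genes 8 rose and 0 fell, and their mean was 0.37 and 0.77 in the Y1KO arrays against -0.15 to 0.07 in WT. Leaving out WT replicate 1 turned the count of 8 into 5, leaving out WT replicate 4 into 2, and leaving out Y1KO replicate 2 into 0. Of 8 smooth muscle and pericyte genes 7 fell, with means of -0.95 and -1.11 against -0.11 to 0.29, and 4 fell without either Y1KO array. WT replicate 2, the lowest array for the osteocyte mean, was the highest for the smooth muscle mean. Of 6 adipocyte genes 4 fell and of 6 chondrocyte genes 2 fell, while 0 of 7 osteoclast and 0 of 7 granulocyte genes passed. The part of these cells in the values above was not tested. In sorted bulk RNA, more cells of a type and more transcript per cell cannot be told apart.

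Podoplanin also marks lymphatic endothelium. Of 7 endothelial and lymphatic genes, Prox1, Lyve1 and Flt4 among them, 0 passed the test and 0 stood above the median of all genes in WT. Their mean was 0.03 and 0.00 in the Y1KO arrays against -0.10 to 0.08 in WT. The 5 measured osteoblast genes were all higher in Y1KO with separated groups, by 0.18 to 0.47, where 17.5% of all genes were separated in that direction, and 0 of the 5 passed the test.

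**Figure D4:**
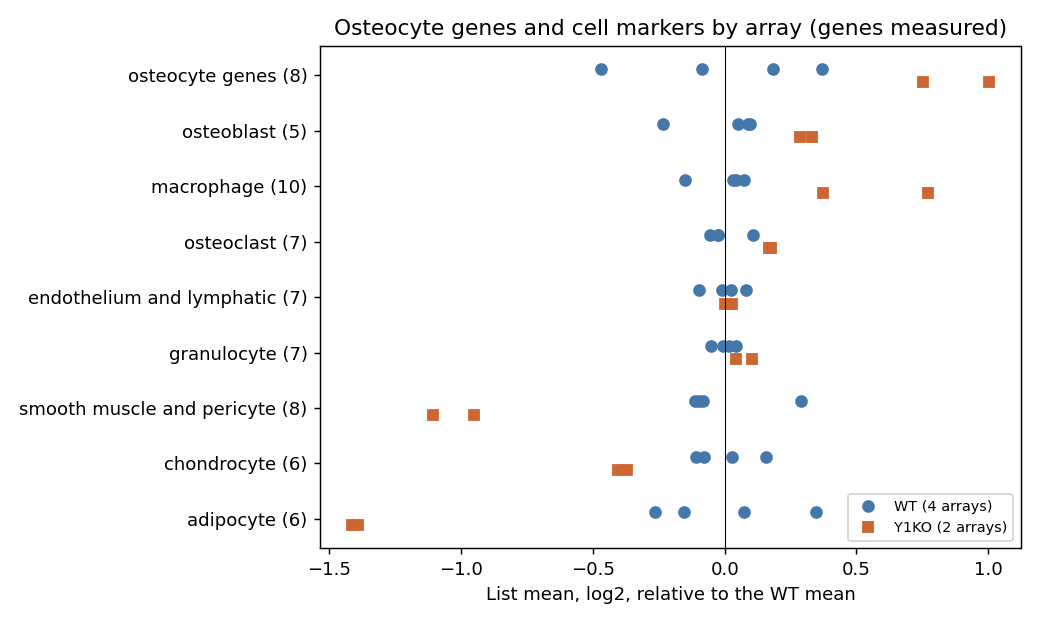
Mean log2 expression of the osteocyte genes and of marker lists for other cells on each array, relative to the WT mean of the list, with the number of genes measured in brackets; circles are WT arrays and squares Y1KO arrays. The osteocyte mean (0.75 and 1.00 in Y1KO) and the macrophage mean (0.37 and 0.77) are above their WT arrays, and the smooth muscle and adipocyte means are below theirs. The osteoblast, osteoclast and granulocyte means are also above theirs, the granulocyte mean barely (0.0428 against 0.0425). The chondrocyte mean is also below, and the endothelial mean lies within its WT range.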

How the data were processed

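Values are log2 expression as deposited by the authors for 28815 probe sets on each of 6 arrays. The submitters' processing notes name RMA and limma; versions, settings and genome build are not given there. No further normalization was applied. Probe sets were named from the repository's platform annotation, which can be old: 21780 had 1 gene symbol, 1605 several and 5430 none listed, and only the first kind was used. By gene identifier 21689 matched RefSeq (GRCm38.p6). The probe set of highest mean stood for a gene, which left 19935 genes. Y1KO was compared with WT by lmFit and eBayes (limma 3.58.1, R 4.3.3), two-sided, with genotype alone in the model and Benjamini-Hochberg adjustment over all genes. Called means an adjusted p under 0.05. The fit was tested on simulated data. The number of arrays, 4 and 2, limits the precision.

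The 8 genes and all lists were chosen with earlier results of these data known. Text names the 8 genes, their families, set partners, and the 3 nearest profiles of each called gene. It also names the called genes of the FGF23, podoplanin, sclerostin and further osteocyte lists. Marker lists of other cells are given mostly as counts and means, without naming their called genes. Msn, Rdx and Kl, and some marker genes, are named besides. Other exceptions are marked. The alternatives covered normalization, filters on dim genes, probe set choice, the variance model, array weights, a replicate block and leaving out each array. Wherever moderation was left out, the p-values come from an ordinary t-test.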

Additional observations from a re-analysis of the deposited data

Results flagged for a closer look

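The lowest or highest of the 4 WT arrays stood far from the other arrays, by Dixon's test at 95%, for 8 of 129 genes looked at, and for 0 of the 8 osteocyte genes. Chance flags about 1 in 20. The 129 were the osteocyte genes, the list genes and the nearest profiles, which were picked for likeness to an osteocyte gene on these same arrays. Slc17a9 and Arfgef3 entered as nearest profiles. Which array is odd therefore depends in part on how the genes were chosen. In 7 of the 8 flagged genes, WT replicate 2 was the odd array. It was lowest for Sp7 (gap over range 0.893, at 9.70 against 10.28 to 10.35), Ibsp (0.856, at 12.34 against 12.86 to 12.94), Phospho1 (0.83, at 9.11 against 10.40 to 10.66), Slc17a9 (0.901) and Arfgef3 (0.835). It was highest for Tagln (0.856, at 11.31 against 10.89 to 10.95) and Rock1 (0.86). For Fbln7, WT replicate 4 was highest (0.864).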

How the results depend on the processing

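Over 16 alternatives Pdpn and Fam20c each kept the call in 15 and Irx5 in 14, with differences of 1.57 to 1.95, 0.97 to 1.17 and 0.69 to 1.08. Without moderation 140 genes rose and 204 fell, and 0 osteocyte genes were called. Leaving out 1 array gave 152 to 1172 rising and 335 to 1290 falling genes, and 2 to 4 rising and 0 falling osteocyte genes. The replicate block gave 5 rising osteocyte genes, adding Dmp1 at 2.42 (limma adjusted p = 0.00389) and Phex at 2.63 (0.00797). By its construction it compares only replicates 1 and 2 of each genotype. WT replicates 1 and 2 held the lowest WT values of both genes, so the block makes their differences larger than in the main fit. Few arrays then bear on the spread, so these p-values lean on limma's moderation. The labels say nothing of a pairing, and deviations from the group means of same-numbered arrays correlated at 0.013 and -0.20 over all genes. With only 2 Y1KO arrays, their deviations mirror each other, so these figures cannot show whether arrays were paired. Signs turned for Irx2 (0.027 with quantile normalization, 0.023 with median centring, 0.0056 without WT replicate 4, 0.036 without Y1KO replicate 1), Fgf23 (0.0385 with median centring, 0.0021 without WT replicate 1, 0.011 without Y1KO replicate 2) and Lrp5 (0.066 without Y1KO replicate 1), the cause of which was not tested. Leaving out 1 array, the lowest values were -0.11 for Irx2, -0.055 for Fgf23 and -0.22 for Lrp5. Of 674 values recomputed for 43 genes, 596 stayed on their side of the threshold with the same sign, 51 lost a call and 19 gained one. Filters removed Mepe at the 40th percentile and Mepe, Sost and Fgf23 at the 60th. Median centring moved the median of all genes from 0.01 to 0.07. Without a Y1KO array, the spread within genotypes comes from the WT arrays alone.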
